A study of Mus musculus with 1 sample.

Results

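The genes described here protect cells from oxidants and reactive aldehydes: antioxidant enzymes, the glutathione and thioredoxin systems, glutathione transferases, aldehyde dehydrogenases and aldo-keto reductases. They were chosen by a rule on gene symbols among the probe sets that the platform annotation assigns to exactly 1 gene. The rule uses no signal of this array, but the families it covers were chosen with earlier results of these data known. The rule took 86 of 18193 measured genes, read by 154 of 34945 single-gene probe sets. The sample was RNA of a mouse lung cancer cell line named KR Primary, established from a KR tumor of strain B6/J. The series title names kras tumors, while KR itself is not explained. The cells were grown in serum-containing medium and collected shortly before confluence, with no further treatment named. The labels do not say whether the cells are a single clone, nor the age of the mouse. With 1 sample of 1 group on 1 Affymetrix array there is no comparison between conditions, no replicate error and no p-value, so each result below is a description of this array.

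Cells make superoxide and hydrogen peroxide as by-products of respiration and of other oxidases. Superoxide dismutases turn superoxide into hydrogen peroxide, which catalase, glutathione peroxidases and peroxiredoxins then remove. Glutathione reductase and thioredoxin reductases restore the spent glutathione and thioredoxin with electrons from NADPH. The transcription factor NRF2, held in check by KEAP1, binds antioxidant response elements and drives many of these genes, and in lung tumors the KEAP1-NRF2 axis is often mutated. In normal lung, club cells and alveolar cells carry much of this detoxifying equipment.

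A signal is the summarised fluorescence of a probe set, in arbitrary units on a linear scale. Because probe sets differ in brightness for the same amount of RNA, each signal was set only against a background on the same array, and the order of signals between genes is not an order of RNA amounts. Where the brightest and dimmest genes of a list are named, this only says which were picked for naming. The background was 126 probe sets of genes for smell, vomeronasal and bitter taste receptors and for keratin-associated proteins of hair, with a median of 6.41. Their 95th percentile, 16.8, is called the lower threshold, and their highest signal, 60.6, the upper threshold. A gene passed a threshold when at least 1 of its probe sets did. Signals between the lower threshold and the upper threshold are also reached by a few background genes and are given as weak.

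The cell type on the label was checked against marker lists. All 7 markers of simple epithelium passed the upper threshold, from Cldn4 at 1150 to Krt18 at 7600.2. Of 6 markers of the lung epithelial lineage, 4 passed the lower threshold and 2 the upper threshold, Foxa1 at 2021 and Foxa2 at 239. The surfactant protein genes Sftpb and Sftpc were weak, at 28.9 and at most 21.1. Sftpa1, at most 10.0, and Nkx2-1, the factor that defines lung epithelium, at 7.66, did not pass the lower threshold. No marker of club cells (0 of 6), hepatocytes (0 of 6), fibroblasts (0 of 7), leukocytes (0 of 6), endothelium (0 of 5) or red cells (0 of 2) passed the upper threshold. At the lower threshold, 2 club cell, 2 endothelial, 1 leukocyte and 1 fibroblast marker passed, and no hepatocyte or red cell marker. The leukocyte marker Csf1r did so on all 3 probe sets, from 29.4 to 47.1. Over all measured genes, 63.3% passed the lower threshold and 47.5% the upper threshold. Club cell markers ranged from 1.38 for Scgb1a1 to 27.2 for Scgb3a1. The other lists ranged from 4.70 for Apoa1 to 15.6 for Ttr (hepatocytes), from 3.95 for Pdgfrb to 19.3 for Col1a2 (fibroblasts), from 3.34 for Cd3e to 47.1 for Csf1r (leukocytes), from 8.19 for Emcn to 30.3 for Kdr (endothelium), and from 1.52 for Alas2 to 8.23 for Hba-a1 (red cells). The 3′ and 5′ control probe sets, whose ratio rises with RNA damage, read 6619 and 6014 for beta-actin and 5544 and 6972 for Gapdh.

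Most of the detoxification genes gave signal. Of the 86 genes, 67 (77.9%) passed the lower threshold, beside 63.3% of all measured genes, and 50 (58.1%) passed the upper threshold, beside 47.5%. A further 17 were weak and 19 were at or below the lower threshold. The median of the highest signals was 130.2 over these genes and 48.3 over all measured genes. Counted by single probe sets, 117 of 154 (76.0%) passed the lower threshold, beside 60.9% over the array, and 85 (55.2%) passed the upper threshold, beside 41.1%. Among the 45 genes with only 1 probe set, 33 (73.3%) passed the lower threshold, beside 48.4% of all such genes. For the 26 with 2 probe sets the shares lay closer, 20 (76.9%) beside 72.4%. Among the 15 with 3 or more, 14 (93.3%) passed, beside 85.3%. The 41 genes with at least 2 probe sets had a median SD between them of 1.13 (log2). For 8 of the 41 (19.5%), some probe sets passed the lower threshold and others did not. The corresponding values over all genes were 1.45 and 32.9%.

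The role groups differed in how completely they were represented. Every measured gene of NRF2 control (2 of 2), of the peroxiredoxins with sulfiredoxin (4 of 4), of the thioredoxin system (6 of 6) and of glutathione synthesis and recycling (4 of 4) passed the upper threshold. The multigene families were mixed: 10 of 22 glutathione transferases, 10 of 20 aldehyde dehydrogenases and 7 of 14 aldo-keto reductases passed it, close to the 47.5% of all genes. Catalase with the glutathione peroxidases passed in 4 of 9 genes, the superoxide dismutases in 2 of 3, and 1 of Hmox1 and Nqo1 did. These shares rest on few genes each, and differences between the groups were not tested. They also depend on probe coverage. Over all measured genes the share above the upper threshold rose from 32.6% with 1 probe set to 71.4% with 3 or more. The 6 thioredoxin system genes were read by 17 probe sets and the 22 glutathione transferases by 31. Groups were not compared at equal numbers of probe sets.

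**Figure D1:**
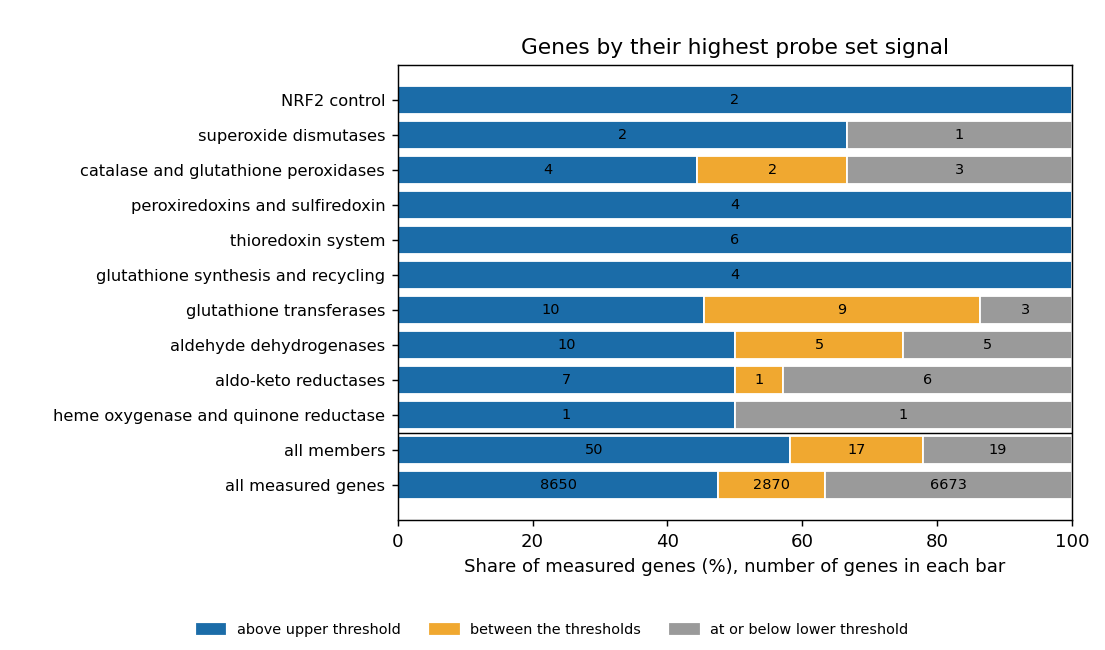
Share of measured genes (horizontal axis, %) in each role group whose highest probe set lay above the upper threshold, above the lower threshold only, or at or below the lower threshold; the number in each bar is the number of genes. The peroxiredoxin, thioredoxin, glutathione synthesis and NRF2 bars are filled by genes above the upper threshold, while 9 of 22 glutathione transferases lay between the thresholds and 6 of 14 aldo-keto reductases at or below the lower threshold.

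The regulators came first. Nfe2l2, which encodes NRF2, read 2410 on its brighter probe set and 17.4 on the other, the latter just above the lower threshold. Its call above the upper threshold therefore rests on 1 of 2 probe sets. Keap1, the adaptor that directs NRF2 to degradation, read 193 and 151, both above the upper threshold. Transcript signal does not report NRF2 protein, which is controlled mainly by its stability. Of 10 genes listed as NRF2 partners and control factors, all 10 passed the lower threshold and 8 the upper threshold, beside 63.3% and 47.5% of all measured genes. Sqstm1, an autophagy receptor that binds KEAP1, read 1628 on 1 of its 2 probe sets and 16.3, under the lower threshold, on the other. All 5 probe sets of Cul3, the ubiquitin ligase scaffold used by KEAP1, passed the lower threshold, from 46.1 to 926, as did all 4 of Crebbp, a coactivator, from 30.7 to 622. Bach2, a repressor related to the NRF2 competitor BACH1, was weak at 25.3, with the dimmest of 3 probe sets at 16.7. Rbx1, a ligase subunit, was weak at 28.1.

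NRF2 recognises short promoter elements, so the promoters of the members were searched for them. RefSeq promoter windows of build GRCm38.p6, from 250 bases before to 50 after the start, were found for 73 of the 86 genes (88 windows). The letters TGACNNNGC, on either strand, occurred in 13 of 88 member windows (14.8%), beside 12.4% of all 32851 windows. Counted by gene this was 13 of 73 (17.8%), beside 3781 of 27025. Of the 44 genes above the upper threshold with a window, 9 held these letters, and of the other 29, 4 did. The other common form, TGAGNNNGC, occurred in 14 of 88 member windows (15.9%), beside 17.6% of all windows. Neither share stood far from that of all promoters, and many known elements lie outside windows of this length. None of the 13 matches to TGACNNNGC held the AP-1 letters TGACTCA or TGAGTCA within its 9 bases. The stretches that follow show the matches upstream of the start in genes above the upper threshold that the text turns on, with the matched letters in capitals.

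The first set holds TGACNNNGC or its reverse complement, and each line gives the gene, its place in GRCm38.p6 and the strand of the gene. The match begins 240 bases before the start in Nfe2l2, 134 in Gclm, 92 in Txnrd1, 87 in Aldh9a1, 56 in Sod1, 56 in Mgst1 and 42 in Gstm5. In Gclm, Txnrd1, Sod1 and Mgst1 the letters lie on the opposite strand.
Nfe2l2, chr2:75704879-75704913, minus strand: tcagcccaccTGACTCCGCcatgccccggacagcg
Gclm, chr3:122245407-122245447, plus strand: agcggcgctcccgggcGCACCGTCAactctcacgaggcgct
Txnrd1, chr10:82859098-82859138, plus strand: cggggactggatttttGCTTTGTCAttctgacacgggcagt
Aldh9a1, chr1:167349888-167349928, plus strand: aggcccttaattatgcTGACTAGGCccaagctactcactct
Sod1, chr16:90220690-90220730, plus strand: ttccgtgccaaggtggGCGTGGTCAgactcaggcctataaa
Mgst1, chr6:138140455-138140495, plus strand: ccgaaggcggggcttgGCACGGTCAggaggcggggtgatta
Gstm5, chr3:107895796-107895836, plus strand: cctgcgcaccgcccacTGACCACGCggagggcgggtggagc

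The second set holds TGAGNNNGC and was added after the values were seen. Gstp1 and Srxn1 share the same 9 letters, TGAGTCAGC, which also contain the AP-1 letters TGAGTCA, beginning 74 and 45 bases before the start. The neighbouring aldo-keto reductases Akr1c12 and Akr1c13 matched 96 and 99 bases before the start, and their 41-base stretches differed at 2 positions. The neighbouring aldehyde dehydrogenases Aldh1a1 and Aldh1a7 both matched 85 bases before the start, and their stretches differed at 3 of 41 positions.
Gstp1, chr19:4037962-4038002, minus strand: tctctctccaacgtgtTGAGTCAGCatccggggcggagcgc
Srxn1, chr2:152105463-152105503, plus strand: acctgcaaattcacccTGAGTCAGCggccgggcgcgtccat
Akr1c12, chr13:4279471-4279511, minus strand: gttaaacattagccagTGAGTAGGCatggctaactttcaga
Akr1c13, chr13:4191072-4191112, plus strand: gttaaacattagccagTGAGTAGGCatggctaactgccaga
Aldh1a1, chr19:20601867-20601907, plus strand: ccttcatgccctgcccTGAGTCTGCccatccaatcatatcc
Aldh1a7, chr19:20727617-20727657, minus strand: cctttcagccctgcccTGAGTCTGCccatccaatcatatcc
A match of these letters is a description of the sequence and not evidence of binding. Akr1cl, whose stretch 166 bases before its start also holds the first motif, gave at most 10.1 and did not pass the lower threshold.

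Of the superoxide dismutases, the intracellular enzymes gave signal and the secreted one did not. Sod1, the cytosolic copper-zinc enzyme, read 2368, 2105, 140, 23.8 and 4.83 on its 5 probe sets. The lowest of these is an _x_at probe set, a kind whose probes can match several genes, and 3 of the 5 passed the upper threshold. Sod2, the manganese enzyme of mitochondria, read 634, 534, 45.5 and 20.4, so that 2 of 4 passed the upper threshold and all 4 the lower threshold. Sod3, the extracellular enzyme, read 1.68 and 1.16, both under the background median.

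Hydrogen peroxide and lipid peroxide removal was represented by a few members. Cat, the peroxisomal catalase, read 1421 and 979. Gpx1, the widespread cytosolic glutathione peroxidase, read 1363 on its only probe set. Gpx4, which reduces phospholipid peroxides and guards against ferroptosis, read 3063 and 3018. All 5 of these probe sets lay far above the upper threshold. Gpx3, the secreted plasma enzyme, read 76.7, a little above the upper threshold. Gpx2, the gastrointestinal enzyme and a known NRF2 target, was weak at 22.5, and so was Gpx8, an enzyme of the endoplasmic reticulum, at 17.4. At or below the lower threshold were Gpx7, also of the endoplasmic reticulum, at 7.31, Gpx6, an olfactory form, at 5.23, and Gpx5, of the epididymis, at 1.98. Set side by side after the values were seen, the 4 mouse forms with selenocysteine in the active site (Gpx1, Gpx2, Gpx3 and Gpx4) all passed the lower threshold and 3 passed the upper threshold. Of the 4 with cysteine in its place (Gpx5, Gpx6, Gpx7 and Gpx8), 1 passed the lower threshold and none the upper threshold. Over all measured genes the shares were 63.3% and 47.5%, and this split rests on few genes.

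Selenocysteine is inserted by a dedicated machinery, and its genes gave signal too. Of 8 listed genes of selenoprotein synthesis, all 8 passed the lower threshold and 7 the upper threshold, beside 63.3% and 47.5% of all measured genes. Sephs2, which makes selenophosphate, read from 215 to 464 on 3 probe sets. Sephs1 read up to 451, with 3 of 4 probe sets above the lower threshold, and Secisbp2l read 646 and 37.7. Secisbp2, which binds the insertion element in the messenger RNA, read 104 and 69.5, and Sepsecs, the synthase of selenocysteine on its transfer RNA, was weak at 52.2 and 21.5.

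All 3 measured peroxiredoxins and sulfiredoxin passed the upper threshold. Prdx2, a cytosolic peroxiredoxin, read 2957 and 464. Prdx3, the mitochondrial form, read 1025 on its only probe set. Prdx4, the form of the endoplasmic reticulum, read 438, 114, 68.3 and 7.55, of which 3 passed the upper threshold and 1 missed the lower threshold. Srxn1, which restores over-oxidised peroxiredoxins, read 266, 207, 131 and 45.2, all above the lower threshold and 3 above the upper threshold. Prdx1, Prdx5 and Prdx6 have no single-gene probe set among those used and were not analysed here as genes.

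The thioredoxin system had 17 of 17 probe sets above the lower threshold and 15 above the upper threshold, beside 60.9% and 41.1% over the array. Txn1, the cytosolic thioredoxin, read 5302 and 23.9, a 221-fold range. Its mitochondrial counterpart Txn2 read 399, 368 and 281, which lie close together. Txnrd1, the cytosolic reductase, read 1891, 272 and 137. Txnrd2, the mitochondrial reductase, read 159, 141, 83.3 and 27.3, and Txnrd3, a form best known from testis, read 175, 104 and 82.9. Txnip, the thioredoxin-binding protein that is induced by glucose, read 235 and 168, both above the upper threshold.

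Glutathione synthesis and recycling was represented on all 8 of its probe sets, each above the upper threshold, beside 41.1% of probe sets over the array. Gclc, the catalytic subunit of the rate-limiting ligase, read 506 and 461. Gclm, its modifier subunit, read 530 and 70.1. Gss, the synthetase of the second step, read 433 and 245, and Gsr, the reductase that recycles oxidised glutathione, read 1135 and 812. No gene in this group depended on a single probe set for its call.

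Hmox1 and Nqo1, a pair of widely used NRF2 targets, fell on opposite sides of the background. Hmox1, the heme oxygenase that is induced by heme and by oxidants, read 135 on its only probe set, above the upper threshold. Nqo1, the quinone reductase, read 14.8 on its only probe set, just under the lower threshold of 16.8. The promoter window of Nqo1 held neither of the motifs searched, as was so for most members with a window, and no window was found for Hmox1. Whether the motifs bear on either signal was not tested. With 1 probe set each, neither call has a second reading on this array.

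**Figure D2:**
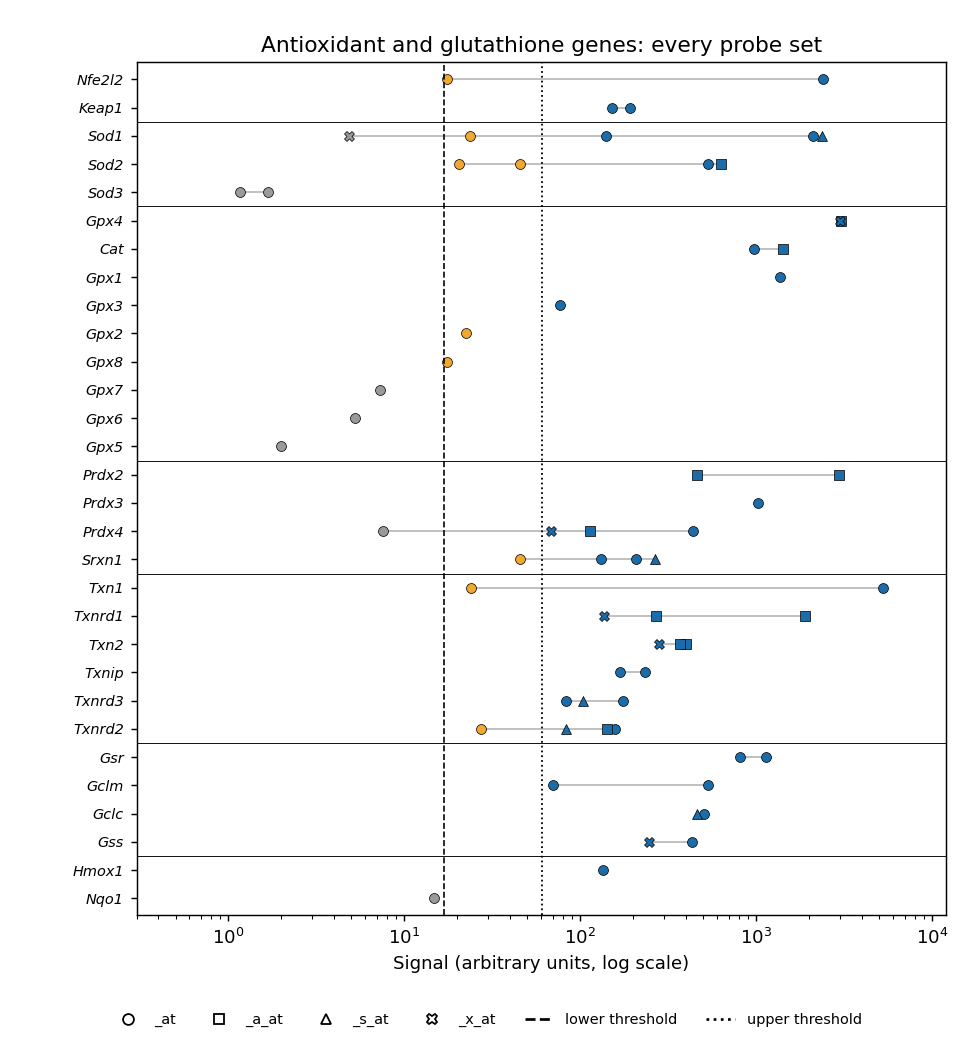
Signal of every probe set (horizontal axis, arbitrary units, log scale) for the regulators, superoxide dismutases, peroxidases, peroxiredoxins, thioredoxin system, glutathione synthesis genes, Hmox1 and Nqo1; marker shape gives the kind of probe set, grey bars join the probe sets of a gene, the dashed line is 16.8 and the dotted line 60.6. Sod3, Gpx5, Gpx6, Gpx7 and Nqo1 lie wholly left of the dashed line, and all 8 probe sets of glutathione synthesis and recycling lie right of the dotted line.

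Glutathione transferases join glutathione to electrophiles, and their family split between a few clear signals and many weak ones. Of 22 genes, 19 (86.4%) passed the lower threshold and 10 (45.5%) the upper threshold, beside 63.3% and 47.5% of all measured genes. Between the thresholds lay 9. Gsto1, an omega-class enzyme that acts on thiol adducts, read 5593 and 5421. Gstp1, the pi-class enzyme raised in many tumors, read 4875 on its only probe set. Gsta4, the alpha-class enzyme with high activity toward the lipid aldehyde 4-hydroxynonenal, read 1268 on its only probe set. These were clear signals, while the single-gene probe sets of their measured relatives were weak or lower: Gsto2 read 48.6, Gstp3 53.0, Gsta2 23.7 and Gsta3 43.5 and 15.2. Gstp2 had no single-gene probe set, and whether it adds to the Gstp1 signal was not tested. A probe set that names Gsta1, Gsta2 and Gm3776 together read 458, above the upper threshold. It cannot be assigned to any of them, so a clear signal of Gsta1 or Gsta2 remains possible.

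The membrane-bound transferases all passed the upper threshold, in 2 cases on only 1 of 2 probe sets. Mgst3 read 1166 and 17.8, Mgst1, which also protects membranes from peroxides, read 97.5 and 4.62, and Mgst2 read 219 on its only probe set. Of the 4 theta-class genes, Gstt3 passed the upper threshold at 125, and Gstt2 at 57.8 fell just short of it. Gstt4 at 12.1 and Gstt1 at 6.71 were at or below the lower threshold. Gstk1, the kappa-class enzyme of mitochondria and peroxisomes, was weak at 26.5.

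The mu-class genes passed the lower threshold in 6 of 7 cases and the upper threshold in 3 (42.9%), beside 63.3% and 47.5% of all measured genes. Gstm5 read 162, Gstm2 99.7 and Gstm4 94.5, each on its only probe set. Gstm1 was weak at 30.7 on the highest of 4 probe sets, the others reading 20.1, 10.4 and 5.02, and this highest one is an _x_at probe set. Gstm3 read 31.4 on an _s_at probe set, which can also match more than 1 transcript, and 2.71 on its own. Gstm7 read 30.6 and 12.2, and Gstm6, at 1.07, was at background. Mu-class genes are close copies of each other, so weak signals among them can come from a relative. Whether they did was not tested.

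**Figure D3:**
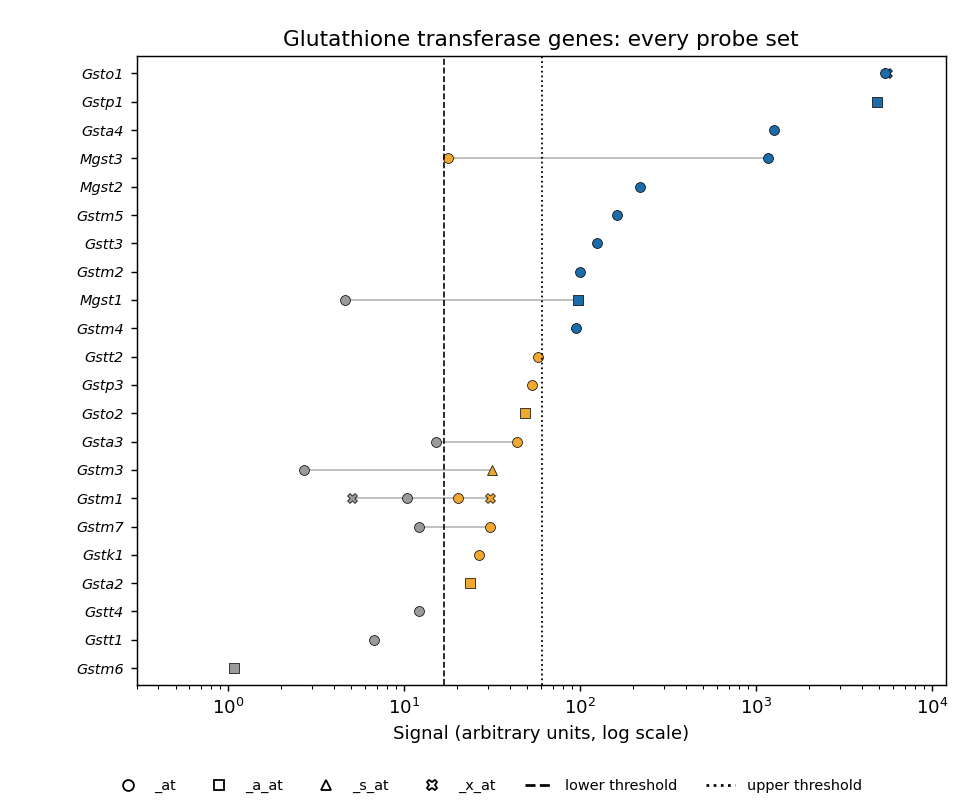
Signal of every probe set (horizontal axis, arbitrary units, log scale) of the 22 glutathione transferase genes, ordered by their highest probe set; marker shape gives the kind of probe set, the dashed line is 16.8 and the dotted line 60.6. Gsto1, Gstp1, Gsta4 and Mgst3 have probe sets at 1166 or higher, a cluster of 9 genes ends between the lines, and Gstt4, Gstt1 and Gstm6 lie left of the dashed line.

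Aldehyde dehydrogenases oxidise aldehydes to acids and passed the lower threshold in 15 of 20 genes and the upper threshold in 10. Aldh2, the mitochondrial enzyme of acetaldehyde, read 361, 68.5, 67.6, 38.5 and 18.9, all 5 above the lower threshold. Aldh1b1, a related mitochondrial enzyme, read 0.965 on its only probe set, at background. In the ALDH1A subfamily, Aldh1a1, a retinal dehydrogenase, read 299 and the rodent gene Aldh1a7 read 187, each on 1 probe set. Aldh1a2 was weak at 20.3, and Aldh1a3 read 13.7, 6.36 and 1.98, none above the lower threshold.

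The fatty aldehyde and related ALDH3 enzymes passed the lower threshold in 4 of 4 genes, beside 63.3% of all measured genes. Aldh3a2, which oxidises fatty aldehydes, read 141, and Aldh3b1 read 167. Aldh3a1, abundant in cornea and a known target of the aryl hydrocarbon receptor, read 57.5, just under the upper threshold. Aldh3b2 was weak at 19.1.

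Several family members with roles in amino acid metabolism gave signal. Aldh18a1, which makes the proline precursor, read 745, 439, 187, 68.2 and 40.4 on 5 probe sets, 4 of them of the _x_at kind, and its single ordinary probe set read 187. Aldh9a1, which acts in carnitine synthesis, read 709 and 254. Aldh6a1, of valine breakdown, read 171 on its only probe set. Aldh7a1, of lysine breakdown, read 322 on 1 probe set but 4.26 and 0.581 on the others, a 554-fold range that makes its call depend on a single probe set. Aldh4a1, of proline breakdown, and Aldh5a1, of succinic semialdehyde, were weak at 29.8 and 28.2. Aldh16a1, for which no role is given here, read 120 and 105. The folate enzymes Aldh1l1, at 13.7 and 1.96, and Aldh1l2, at 13.8, did not pass the lower threshold, nor did Aldh8a1 at 9.71 and 9.30.

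The aldo-keto reductases reduce aldehydes and ketones with NADPH, and by their highest probe sets few lay between the thresholds. Of 14 genes, 7 passed the upper threshold, 1 was weak and 6 were at or below the lower threshold. Over all measured genes, 63.3% passed the lower threshold and 47.5% the upper threshold. With the median of a gene's probe sets, 5 passed the upper threshold, beside 38.8% of all measured genes. Akr1a1, the general aldehyde reductase, read 5888, 3785, 3776 and 2491, all 4 far above the upper threshold. Akr1b8, a relative of human AKR1B10, read 2487 on its only probe set. The mouse gene named Akr1b10 read 222, 44.1 and 26.3. Akr1e1 read 188 and 17.4. Akr1b10 and Akr1e1 each passed the upper threshold on only 1 probe set, and both were weak by the median of their probe sets. Akr1d1, the liver enzyme of bile acid synthesis, read 7.64 and 7.09, at background, as did Akr1cl at 10.1 and 3.64.

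The AKR1C enzymes act on steroids, prostaglandins and xenobiotics. Akr1c13 at 1586, Akr1c12 at 989 and Akr1c19 at 114 passed the upper threshold, each on a single probe set. Akr1c14, a 3-alpha-hydroxysteroid dehydrogenase, was weak at 31.7. Akr1c21 at 14.8, Akr1c20 at 6.98 and 6.53, Akr1c18, the progesterone-inactivating enzyme of the ovary, at 4.26, and Akr1c6, a liver 17-beta-hydroxysteroid dehydrogenase, at 1.35 did not pass the lower threshold.

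**Figure D4:**
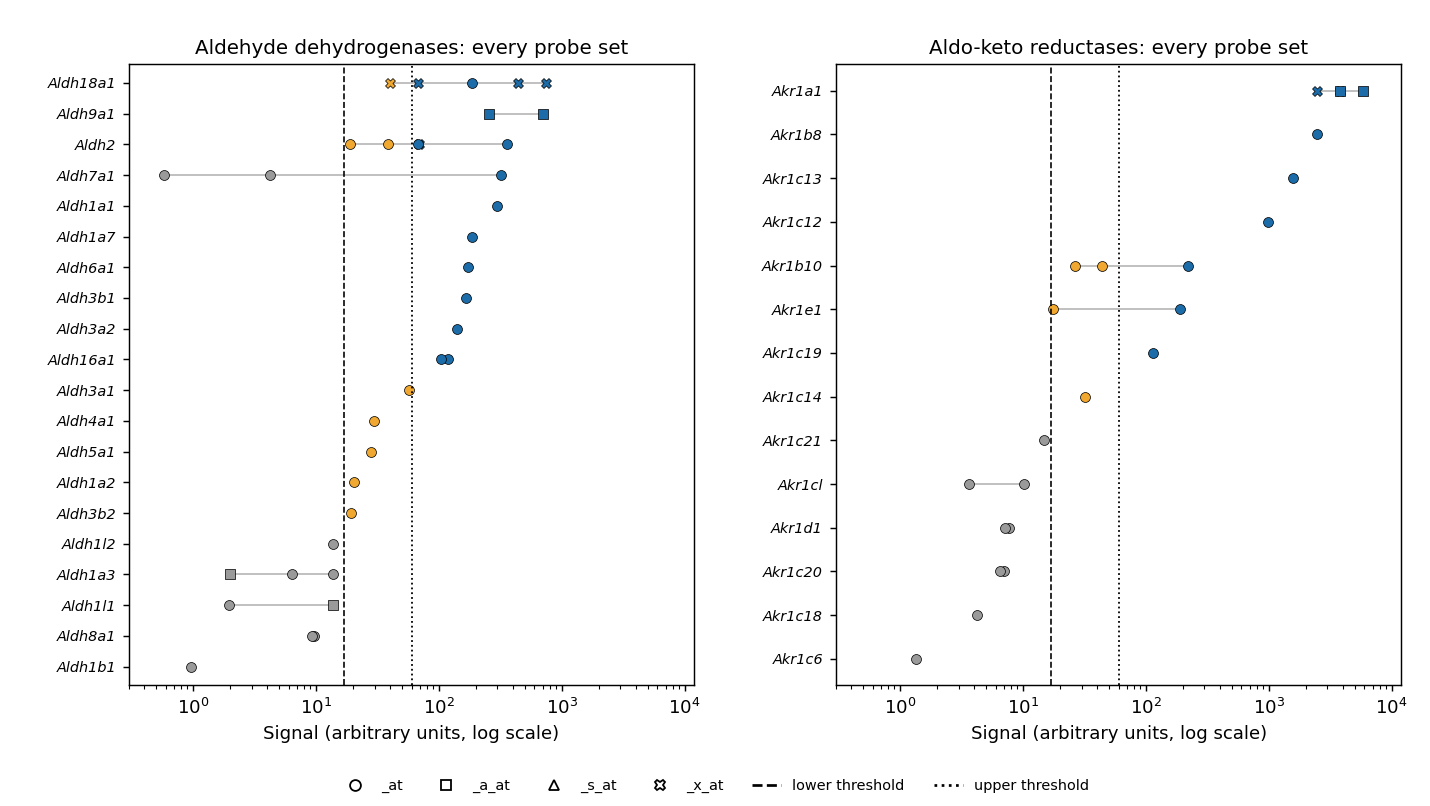
Signal of every probe set (horizontal axes, arbitrary units, log scale) of the 20 aldehyde dehydrogenase genes (left) and the 14 aldo-keto reductase genes (right), ordered by their highest probe set; marker shape gives the kind of probe set, the dashed line is 16.8 and the dotted line 60.6. Aldh7a1 spans from 0.581 to 322, and among the reductases only Akr1c14 has its highest probe set between the lines.

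Chromosomal neighbours in the larger gene runs differed in their calls. By gene order in RefSeq, 9 reductase genes lie in 1 run with no other protein-coding gene between them, and along it Akr1c14 was weak, Akr1c18 at background, Akr1c13, Akr1c19 and Akr1c12 above the upper threshold, Akr1c6, Akr1c20 and Akr1c21 at or below the lower threshold, and Akr1e1 above the upper threshold. The 3 clear AKR1C genes of the run are adjacent to each other. In the run of 7 mu-class transferases, Gstm5, Gstm2 and Gstm4 passed the upper threshold, with weak genes and the background gene Gstm6 among them. In the run of 4 theta-class genes the outer pair, Gstt3 and Gstt2, passed the lower threshold and the inner pair did not. Gpx5 and Gpx6 are neighbours and were both at background, and Aldh1a1 and Aldh1a7 are neighbours and both passed the upper threshold. Neighbouring copies are similar in sequence, so signals of adjacent genes are not independent readings.

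**Figure D5:**
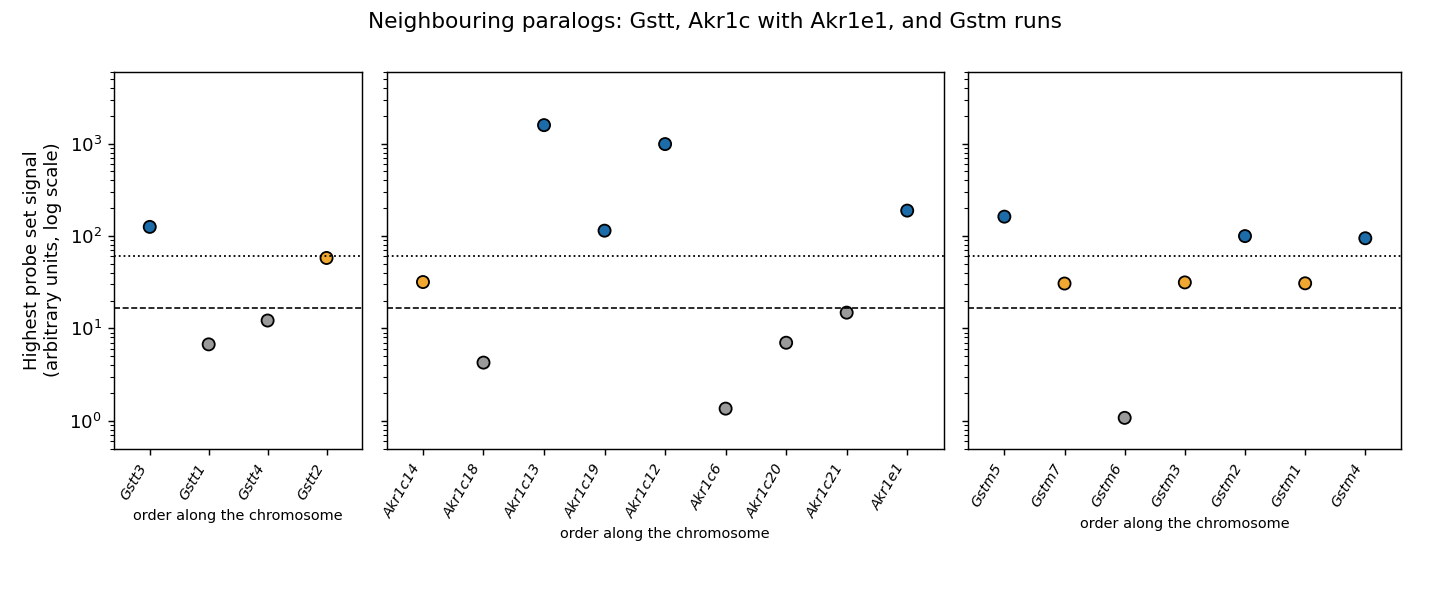
Highest probe set signal (vertical axis, arbitrary units, log scale) of member genes in the 3 longest runs of neighbouring paralogs, in their order along the chromosome; the dashed line is 16.8, the dotted line 60.6, and colours mark genes above the upper threshold (blue), between the thresholds (orange) and at or below the lower threshold (grey). Akr1c13, Akr1c19 and Akr1c12 stand together above the dotted line at 1586, 114 and 989, beside Akr1c18 at 4.26 and Akr1c6 at 1.35.

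The wider pathway was taken from lists of genes outside the symbol rule. Of 71 measured genes in 8 lists, 65 (91.5%) passed the lower threshold and 54 (76.1%) the upper threshold, beside 63.3% and 47.5% of all genes. The difference from the members was not tested, and these lists hold well-known genes that many cells express. The lists were also chosen with earlier results of these data known. Of 14 further NRF2 targets, all 14 passed the lower threshold and 12 the upper threshold. Fth1, the ferritin heavy chain that stores iron, read 5637 and 4137. Ugdh, which makes UDP-glucuronate, read 2879 and Abcc4, a multidrug exporter, 1808, each on its only probe set. The weak genes were Cbr3, a carbonyl reductase, at 44.5 and Blvrb, a biliverdin reductase, at 45.3. Ftl1 was not analysed here.

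Of the genes listed for NADPH supply, all 8 that were measured passed the upper threshold, beside 47.5% of all measured genes. G6pdx, the entry enzyme of the pentose phosphate pathway, was not analysed here. Tkt, the transketolase, read from 45.3 to 5337 on 3 probe sets, Pgd, which makes NADPH in the pentose phosphate pathway, 2757, and Idh1, the cytosolic isocitrate dehydrogenase, 1664. The mitochondrial genes Mthfd2, of folate metabolism, and Nnt, the gene of the transhydrogenase for mitochondrial NADPH, read up to 295 and 329, with 13.9 on the dimmest of 3 Nnt probe sets. Such signals do not show an intact transcript or a working enzyme, and neither was tested in this B6/J line.

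Supply and turnover of cysteine and glutathione had 8 of 9 measured genes above the lower threshold and 7 above the upper threshold. Over all measured genes the shares were 63.3% and 47.5%. Slc3a2, the heavy chain shared by the cystine and other amino acid transporters, read 837 and Chac2, which degrades glutathione, 319. Slc1a5, a glutamine transporter, read 368 on 1 probe set and 21.8 on the other. Cbs, the first enzyme of cysteine synthesis from homocysteine, was weak at 21.9 and read 2.82 on its other probe set. Oplah, which opens 5-oxoproline, was at background at 6.16. Ggt1 and Mat2a were not analysed here. Slc7a11, the cystine-specific light chain and counted above among the NRF2 targets, read 66.5 and 59.7, on either side of the upper threshold, and is named here after its values were seen.

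Of 8 glutaredoxins and methionine sulfoxide reductases, all 8 passed the lower threshold and 6 the upper threshold. Over all measured genes the shares were 63.3% and 47.5%. Glrx5, of mitochondrial iron-sulfur cluster assembly, read 1888, Glrx up to 514, Glrx2 up to 448 and Glrx3 35.9. Msrb3 read 17.5 on 1 of 2 probe sets and 12.5, under the lower threshold, on the other. Of 6 glyoxalase, sestrin and related genes, 6 passed the lower threshold and 5 the upper threshold. Park7, the redox-sensitive protein DJ-1, at 1770 and Hagh, the second glyoxalase, at 327 passed the upper threshold, as did Sesn2 at 113. Glo1, which detoxifies methylglyoxal, passed it at 584, with 20.3 on the dimmest of 4 probe sets. Sesn1 was weak at 42.9, with 2 of 4 probe sets above the lower threshold and the dimmest at 4.25. Esd was not analysed here.

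The genes of oxidant production passed least often among these lists. Of 8 measured, 3 passed the lower threshold and 1 the upper threshold, beside 63.3% and 47.5% of all measured genes. This rests on few genes, and the difference was not tested. Cyba, the p22 subunit shared by several NADPH oxidases, read 521. The catalytic subunits that were measured did not pass the lower threshold: Cybb, of phagocytes, read at most 11.4, Duox1 7.63 and Nox4 3.43. Maoa, a mitochondrial amine oxidase, was weak at 50.04 on 1 probe set and read 15.1, under the lower threshold, on the other. Noxo1, an oxidase organiser, was weak at 30.5. Maob at 2.39 and Xdh, xanthine dehydrogenase, at 1.101 were at background. Nox1, Nox3, Noxa1 and Duox2 were not analysed here.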

How the data were processed

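RNA of 1 cell line sample was hybridised to 1 array. The values deposited by the authors are a linear intensity for each probe set. The submitters' processing notes name Affymetrix Expression Console, but the algorithm, background correction and scaling were not given in the sources used here. Scanner files and detection calls were not used here. Dim signals therefore carry little information on amount, and bright ones can be compressed.

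Of 45101 probe sets, 64 were controls, 34945 were assigned to 1 gene, 932 to several genes, and 9160 are unnamed in the table used. Members were taken by symbol from the platform annotation, and updating symbols through the gene ID (RefSeq, GRCm38.p6) changed 0 member symbols. Of 17 further RefSeq symbols that match the rule, 9 are protein-coding genes (Akr1b3, Akr1b7, Aldh3b3, Gsta1, Gstp2, Prdx1, Prdx5, Prdx6 and Prdx6b); they had no single-gene probe set and were not analysed here. The thresholds were the 95th percentile and the maximum of the background set, and a gene took its highest probe set. Depth does not apply to an array, and its single copy limits the precision. The symbol rule uses no signal, but the gene families it covers and the gene lists were chosen with earlier results of these data known. Every member could be named. Of each other list, the 3 with the brightest probe sets, the 2 with the dimmest and those not above the lower threshold were. Of marker lists, the highest and lowest were named. All genes of the lung epithelial lineage list were named after their values were seen. No protein sequences were used here. Calls at the lower threshold were tested on simulated data in which present genes lay far above the background. Weak signals and the upper threshold were not tested that way. Neighbours were members with at most 3 other protein-coding genes between them. Python 3.11.15, numpy 2.4.6, pandas 2.3.3 and matplotlib 3.10.9 were used. There were 9 alternatives, plus a motif added after seeing the data.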

Additional observations from a re-analysis of the deposited data

Results flagged for a closer look

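Probe sets that the annotation assigns to 2 or more genes, at least 1 of them matching the symbol rule, were left out of all counts, and 7 of these 9 lay above the upper threshold. All 5 that name Prdx1 together with the predicted gene Gm21399 did, with signals from 508 to 6612. A probe set naming Akr1c12 and Akr1c13 read 2341, and 1 naming Gsta1, Gsta2 and Gm3776 read 458, while the single-gene probe set of Gsta2 read 23.7. The 2 naming Aldh3b2 and Aldh3b3 read 30.6 and 12.2. These signals cannot be assigned to either gene of a set. No control sample exists for this array, and the limit was the highest background probe set.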

How the results depend on the processing

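The count of members above the lower threshold was 67 and ranged from 55 (lower threshold at the 99th percentile, 36.9) to 69 (90th percentile, 14.1), and the count above the upper threshold was 50 and ranged from 36 (all probe sets of a gene must pass) to 65 (background without keratin-associated genes, limit 19.2). The members' share exceeded that of all genes under each of the 9 alternatives, for example 41.9% beside 27.3% when all probe sets had to pass and 75.6% beside 60.8% without keratin-associated genes. That last setting moved the glutathione transferases above the upper threshold from 10 to 19, since 9 of them lie between 19.2 and 60.6. When all probe sets had to pass, the count fell to 1 for NRF2 control, to 0 for superoxide dismutases, to 2 for peroxiredoxins with sulfiredoxin and, over all measured genes, from 8650 to 4960. The other 140 counts stayed within 1.5 times their value. With the median of a gene's probe sets, 6 members changed class: Akr1b10, Akr1e1, Aldh7a1, Gstm1, Gstm3 and Mgst1. Nqo1 and Akr1c21 passed the lower threshold only when it was set at the 90th percentile. Leaving out _x_at probe sets changed no member's class. Leaving out _s_at and _a_at ones too left 76 members measured, of which Gstm3 and Mgst1 changed class. The array's single copy and the unknown background correction limit all calls near the thresholds.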
